A study of Mus musculus with 12 samples.

Results

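Cluster 22 is a cluster of projection neurons (PN) of the embryonic mouse cortex that goes by the name callosal PN, a name it shares with Cluster 1. Its members were taken as all nuclei filed under that cluster in the deposited tables, which came to 557 of 50550 nuclei. It ranked 22nd by size among 25 clusters, 8 of which are PN. Pregnant C57BL/6J mice were injected intraperitoneally once a day with saline or with 2.5 g/kg ethanol (EtOH, as a 25% v/v solution), with 6 injections from E8.5, and the cortices of their embryos, labelled as embryonic day 14, were profiled by single nucleus RNA sequencing (snRNAseq). Embryos are named by dam and number. Saline embryos S1-1 and S1-2 and EtOH embryos E1-1 and E1-2 formed batch 1, while batch 2 held the saline embryos S2-1, S2-2 and S2-4 with 4 EtOH embryos of dam E2 (E2-1, E2-2, E2-3 and E2-4). Each group of 5 saline or 6 EtOH embryos thus rested on 2 dams, and each batch held both treatments. Within a treatment each batch was a single dam, so batch and dam cannot be told apart. The labels give no deletion or transgene for either group. Saline embryo S2-3 was not analysed here, as no counts were available for it. The paper states that a saline sample, which it does not name, was removed because its nuclei were spread over the clusters unlike those of the others. The percentages of nuclei below are thus from saline embryos kept after that step. Cluster 22 was found in every one of the 11 embryos, with 298 nuclei from saline and 259 from EtOH embryos. Nuclei were assigned by the authors from the same expression values that are described below, so levels set against other clusters are given without a test.

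Projection neurons are the excitatory, glutamatergic neurons that send axons out of their own area of the cortex. Callosal PN cross to the other hemisphere through the corpus callosum and include many neurons of the upper layers, which carry Cux1 and Cux2, while subcortical PN that reach the brainstem and spinal cord depend on Fezf2 and Bcl11b (Ctip2), with Sox5, Tle4 and Zfpm2 marking deep layers. In the embryonic cortex newborn neurons pass through states in which these programs overlap before their identities separate. Subplate neurons, among the earliest born cells of the cortex, and neurons of the claustrum share the orphan nuclear receptor Nr4a2 (Nurr1).

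The nuclei of Cluster 22 were unevenly spread over the embryos. Saline embryos gave 105 (S1-1), 49 (S1-2), 42 (S2-1), 20 (S2-2) and 82 (S2-4) nuclei, and EtOH embryos gave 34 (E1-1), 39 (E1-2), 66 (E2-1), 46 (E2-2), 39 (E2-3) and 35 (E2-4). Embryo S2-2 thus had the fewest and S1-1 the most. As a share of all nuclei, the cluster made up between 0.451% (S2-2, 95% Wilson interval 0.292 to 0.695) and 1.37% (S1-1, 1.14 to 1.66) in saline embryos and between 0.903% (E2-4, 0.650 to 1.254) and 1.74% (E2-1, 1.37 to 2.20) in EtOH embryos. The means were 0.926% ± 0.362 (SD, n = 5) and 1.34% ± 0.386 (SD, n = 6), a difference of 0.418 percentage points that did not pass a two-sided exact permutation test over embryos (p = 0.0909, adjusted p = 0.121 over 4 measures). The groups overlapped, and the EtOH mean was the higher one in each batch (1.17% and 1.42% in batch 1, 0.762% and 1.31% in batch 2). Among PN nuclei alone, Cluster 22 took 3.22% ± 1.02 (SD, n = 5) of nuclei in saline embryos, and 3.65% ± 0.818 (SD, n = 6) after EtOH (p = 0.478 by the same exact permutation test), with the saline mean higher in batch 1 (3.70% and 3.39%) and lower in batch 2 (2.91% and 3.77%). Without S2-2 the difference among PN nuclei was -0.002765 percentage points.

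Depth, taken here as the counts per Cluster 22 nucleus, differed between the libraries, which touches every comparison of treatments below. It cannot tell the sequencing of a library from the RNA content of its nuclei. The counts are numbers of unique molecular identifiers (UMIs), each standing for an RNA molecule, and Cluster 22 held 6573428 of them, from 230705 in E1-1 to 1536734 in S1-1. A nucleus had a median of 11951 ± 2018 UMIs (mean of embryo medians, SD, n = 5) in saline embryos, and after EtOH the value was 8640.3 ± 1485 (SD, n = 6; two-sided exact permutation p = 0.00649, adjusted p = 0.0130). Genes detected per nucleus were also fewer after EtOH, at 2901 against 3486, and here p was 0.00216, the smallest that 462 splits of the embryos allow (exact permutation test, adjusted p = 0.00866). The saline embryo S2-4, with a median of 9609.5 UMIs, lay within the range of the EtOH embryos, and E1-1 lay below all others at 5757.5. No cell barcode was shared between libraries among the 557 nuclei (0 shared barcodes).

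**Figure D1:**
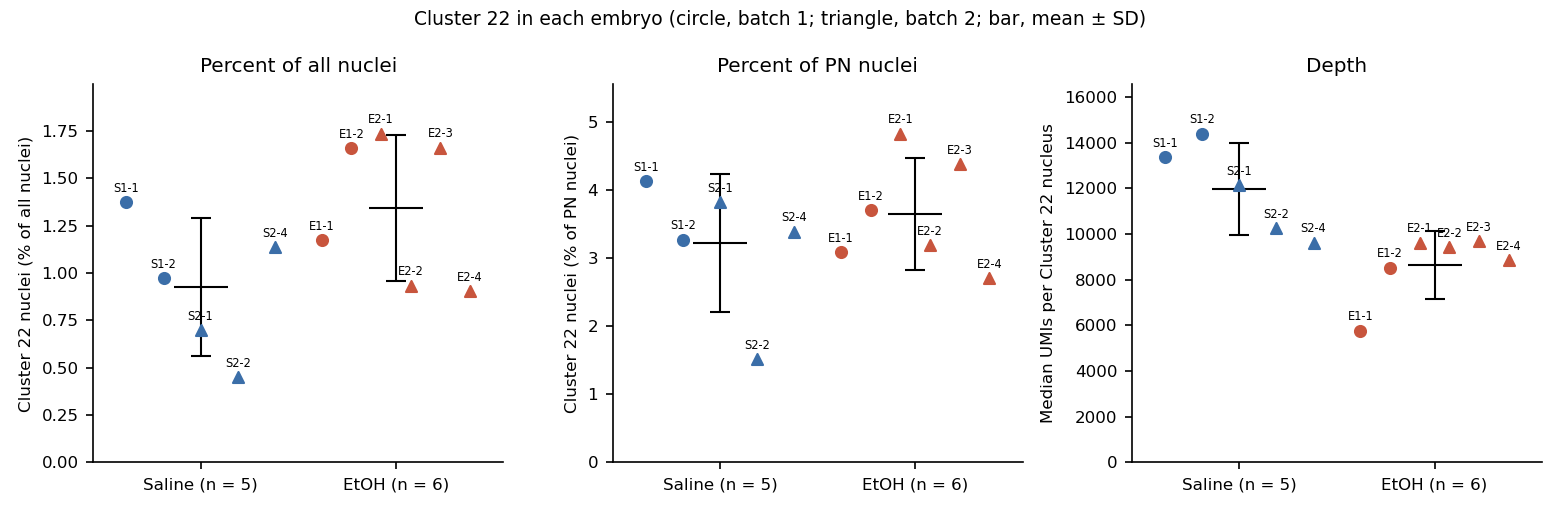
Cluster 22 in each embryo, as a percent of all nuclei, as a percent of PN nuclei and as the median UMIs per nucleus, with each point an embryo (circles batch 1, triangles batch 2) and the bar the group mean ± SD. The percentages of the groups overlap, while the EtOH embryos are shallower, with the saline embryo S2-4 at 9609.5 UMIs inside the EtOH range.

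The general PN markers were uneven in Cluster 22. Levels are in CPM, the UMIs of a gene scaled to 1e+06 UMIs of the cluster in an embryo. Of the 10 PN identity genes in the files, 7 had a lower mean than in Cluster 1, 6 of them in each embryo, and the median rank was 5 among the 8 PN clusters. Bhlhe22, a basic helix-loop-helix factor, ranked last at 3.93 CPM, inside the range of the interneuron clusters (1.18 to 5.03 CPM). Slc17a6, a vesicular glutamate transporter, ranked 7th at 31.6 CPM, also inside the interneuron range (21.3 to 116 CPM), and 5.7% of nuclei thinned as described below had a UMI of it against 8.5% in interneurons. Mef2c, a MADS box factor, went the other way, at 872 against 333 CPM in Cluster 1 and higher in 11 of 11 embryos. Neurod2 and Neurod6, transcription factors of glutamatergic cortical neurons, had mean levels of 115 ± 34.5 and 95.5 ± 28.4 CPM (SD, n = 11). Cluster 1 had 252 CPM of Neurod2 and 175 CPM of Neurod6, and Cluster 4, the authors' rostral subcortical PN, had 156 and 119 CPM. Neurod2 ranked 6th and Neurod6 5th of the PN clusters. The 7 interneuron clusters lay below all of these, between 13.5 and 39.3 CPM for Neurod2 and between 15.3 and 35.9 CPM for Neurod6. Tbr1, another PN transcription factor, was at 82.1 ± 13.5 CPM (SD, n = 11) against 3.9 to 13.3 CPM in interneurons. Nuclei were also thinned to 2000 UMIs each, so that depth did not set the share of nuclei with a transcript, and no Cluster 22 nucleus was lost by this (0 under 2000 UMIs). After thinning, 21.2% ± 8.3 of Cluster 22 nuclei (SD, n = 11 embryos) had a Neurod2 UMI against 40.1% in Cluster 1, 27.4% in Cluster 4 and 3.5% in interneurons, which should lack the gene. For Neurod6 these shares were 16.9% ± 7.9 (SD, n = 11), 29.0%, 20.2% and 3.6%. Without thinning, 61.4% of Cluster 22 nuclei had a Neurod2 UMI and 52.0% a Neurod6 UMI.

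Defining markers of other cell classes were low, though some genes on their lists were not. Gad2, the GABA-synthesising enzyme of interneurons, was at 35.5 CPM against 608 to 1248 CPM in the interneuron clusters, and 4.7% of thinned nuclei had a Gad2 UMI, as in Clusters 1 (4.7%) and 4 (4.6%), against 74.2% of interneuron nuclei. The 14 interneuron genes summed to 818 ± 203 CPM (SD, n = 11), above Clusters 1, 4 and 16 (592, 695 and 578 CPM) and under the mean of 19641 CPM in the interneuron clusters. Adarb2, an RNA editing family gene on that list, was at 306 CPM, just above the lowest interneuron cluster (290 CPM). The striatal list genes Meis2 (1025 CPM) and Foxp1 (416 CPM) lay inside the interneuron range (849 to 7081 and 105 to 799 CPM). Both were under the striatal Cluster 11 (5528 and 1756 CPM) and Cluster 4 (1114 and 437 CPM), while Cluster 1 had 1960 and 359 CPM. Eomes, which marks intermediate progenitors, was at 4.9 CPM against 414 CPM in Cluster 6, and Reln, made by Cajal-Retzius cells, was at 84.3 CPM against 10477 CPM in Cluster 14. The radial glia gene Hes1 stood at 3.3 CPM and the cell division gene Top2a at 13.8 CPM. The summed level of 15 genes of meningeal, vascular, microglial and oligodendrocyte cells was 33.8 ± 9.5 CPM (SD, n = 11), with Olig1 and Olig2 at 0.

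Of the 17 genes on the callosal and upper layer list, 12 had a lower mean than in Cluster 1, 8 of them in each embryo, and 5 a higher one (Rorb, Nectin3, Dok5, Chn2 and Plxnd1). Cux1 and Cux2, homeobox factors of upper layers, were at 145 and 79.6 CPM in Cluster 22 against 354 and 301 CPM in Cluster 1, lower in 11 of 11 embryos for both. Lhx2, a LIM homeobox factor, was at 17.8 CPM against 113 CPM, and Unc5d, a netrin receptor of upper layer neurons, at 232 CPM against 1662 CPM, again lower in each embryo. Rorb, a nuclear receptor of layer IV, went the other way, at 389 ± 82.7 CPM (SD, n = 11) against 168 CPM in Cluster 1, and was higher in 11 of 11 embryos, close to the 406 CPM of Cluster 4. The signalling gene Chn2 (366 against 184 CPM) and the adhesion gene Nectin3 (85.6 against 47.9 CPM) were likewise higher in 11 of 11 embryos, the semaphorin receptor Plxnd1 (31.3 against 14.5 CPM) in 10 and Dok5 (104 against 73.6 CPM) in 8. Of the list, 0 peaked in Cluster 22 among the 25 clusters, and 2 (Nectin3 and Dok5) peaked there among the PN clusters. The list summed to 3186 ± 440.3 CPM (SD, n = 11), between the 6409 CPM of Cluster 1 and the 2393 CPM of Cluster 4.

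Deep layer genes were present but not uniformly high. Ldb2, Tshz3 and Tle4, transcriptional regulators of deep layer neurons, were at 1268 ± 164, 572 ± 113 and 396 ± 125 CPM (SD, n = 11), each above Cluster 1 (673, 74.1 and 157 CPM) in 11 of 11 embryos and below the mean of Cluster 4 (1300.1, 649 and 683 CPM). Sox5, by contrast, was at 5126 ± 566 CPM (SD, n = 11), near the 5653 CPM of Cluster 1 and well under the 9103 CPM of Cluster 4. Hs3st4, a sulfotransferase of layer VI neurons, was at 315 CPM against 2722 CPM in Cluster 4, and Zfpm2, a zinc finger cofactor of corticothalamic neurons, was at 212 ± 95.2 CPM (SD, n = 11), the lowest of the PN clusters, against 795 CPM in Cluster 1 and 2241 CPM in Cluster 4. Fezf2 was at 20.3 CPM, below both Cluster 1 (39.7 CPM) and Cluster 4 (77.7 CPM), and Crym, the authors' marker of caudal subcortical PN in Cluster 16 (33.8 CPM there), had no UMI in any of the 557 nuclei (0.0 CPM). The 17 genes of the subcortical and deep layer list summed to 9196 ± 706 CPM (SD, n = 11), close to Cluster 1 (9362 CPM) and under Cluster 4 (19131 CPM), and 0 of them was highest in Cluster 22.

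Shares of nuclei gave a like picture for Bcl11b and set Nr4a2 apart. After thinning, 68.5% ± 16.1 of nuclei (SD, n = 11) had a Bcl11b UMI, against 78.8% in Cluster 1, 83.4% in Cluster 4 and 59.3% in interneurons. For Nr4a2 the share was 18.2% ± 4.1 (SD, n = 11), against 0.966% in Cluster 1, 0.853% in Cluster 4 and 1.5% in interneurons. Fezf2 UMIs were found in 5.0% of Cluster 22 nuclei, against 6.9% in Cluster 1 and 14.7% in Cluster 4.

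**Figure D2:**
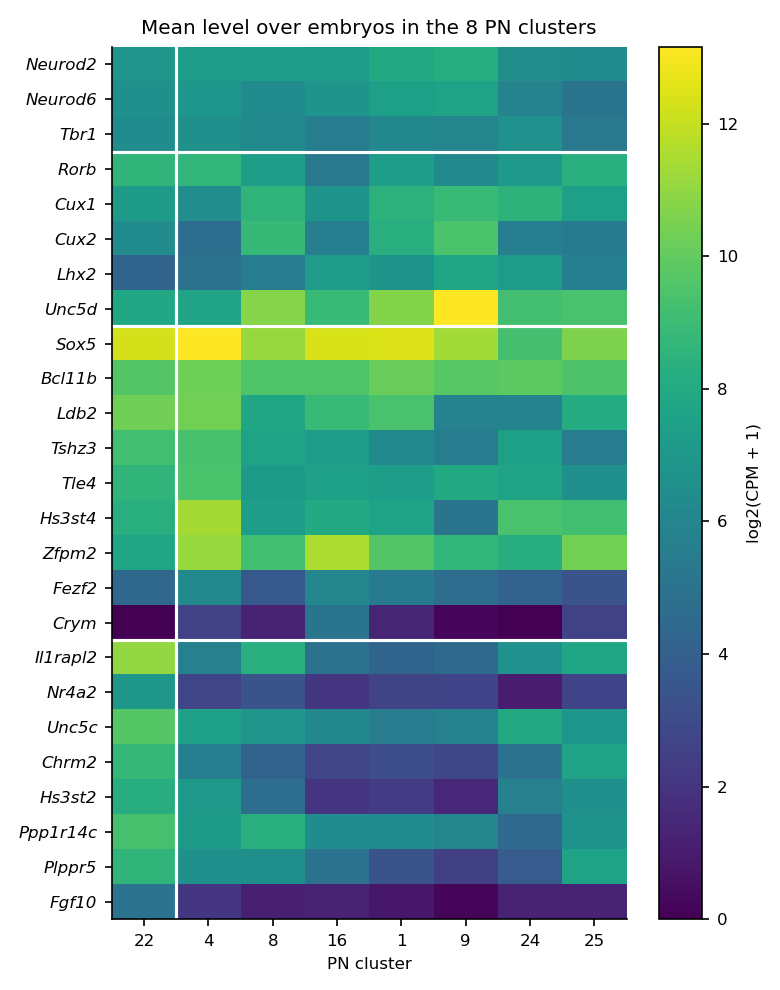
Mean level over embryos, as log2(CPM + 1), of PN markers, callosal and upper layer genes, deep layer genes and genes that led Cluster 22 (top to bottom, separated by white lines) in the 8 PN clusters, with Cluster 22 in the first column. Cluster 22 has low Cux2 (79.6 CPM) and Zfpm2 (212 CPM) beside Cluster 1, and high Il1rapl2 (2084 CPM) and Nr4a2 (126 CPM).

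Over all genes, the profile of Cluster 22 was closer to Clusters 4, 8 and 16 than to its namesake. Across 11621 genes, the Pearson r of mean log2(CPM + 1) with Cluster 22 was 0.970 for Cluster 4, 0.963 for Cluster 8, 0.942 for Cluster 16, 0.932 for the interneuron Cluster 7 and 0.931 for Cluster 1. Clusters 19, 25, 13 and 15 followed at 0.927 to 0.929, so this measure set Cluster 1 no nearer than clusters of another class, and the lowest was 0.738 for Cluster 21, the cortical hem radial glia. These r values are across genes, which are not independent, and the clusters share their embryos and libraries. Counted another way, 559 genes were at least 2-fold higher and 364 at least 2-fold lower than in Cluster 1 with the same direction in each of the 11 embryos, of 8658 genes compared, while the same counts against Cluster 4 were 199 and 154 of 8421.

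By level, though not by ratio to other clusters, the genes that led Cluster 22 were headed by Il1rapl2. It is an X-linked member of the interleukin-1 receptor family, whose relatives organise synapses. Its mean was 2084 ± 477 CPM (SD, n = 11), 3.34 times the next cluster (Cluster 19, neurons that the authors left unclassified, 624 CPM) and 6.86 times the next PN cluster (Cluster 8, 304 CPM), with 18.1 CPM in Cluster 1. Fgf10, a secreted growth factor, was lower in level but more restricted, at 30.8 ± 18.5 CPM (SD, n = 11). It was 8.45 times the next cluster (5.33 times in saline embryos alone) and had no UMI in 1 of the 11 embryos. Nr4a2 was at 126 ± 51.5 CPM (SD, n = 11), 13.5 times the next PN cluster and 2.24 times the radial glia of Cluster 12. Of the other genes with the largest ratios to any other cluster, those with the highest levels come next. Chrm2, a muscarinic acetylcholine receptor, was at 434 ± 94.4 CPM, 2.25 times the next cluster, and Plppr5, a lipid phosphatase-related membrane protein, at 389 ± 70.6 CPM (both SD, n = 11), 2.00 times the next. Ppp1r14c, an inhibitor of protein phosphatase 1, was at 649 ± 93.7 CPM against 324 CPM in Cluster 8, and Hs3st2, a heparan sulfate sulfotransferase, at 290.4 ± 69.2 CPM against 133 CPM in Cluster 4 (both SD, n = 11). Chrm2, Hs3st2, Ppp1r14c and Plppr5 were higher in Cluster 22 than in Clusters 1, 4, 8 and 16 in each of the 11 embryos.

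The rest of the 15 genes with the largest ratio to any other cluster were Stum, the nuclear receptor Pparg, 4933432K03Rik, Gm16000, the metalloproteinase inhibitor Timp4, Akr1c19, the matrix protein Fbn1 and Fam20a, with ratios between 1.82 and 3.21 and means between 10.9 and 136 CPM. Among PN clusters alone, the leading genes also included Chrdl1, a BMP antagonist (8.87 times the next PN cluster), Olfm3, an olfactomedin (423 ± 186 CPM, 7.85 times), Etl4 (3.92 times), the collagen gene Col24a1 (3.89 times), Tmcc3 (3.89 times), the extracellular sulfatase Sulf2 (3.28 times), the netrin receptor Unc5c (835 ± 309 CPM, 3.28 times), AC129186.1, Lypd6b and Dlc1. Of the 13 subplate genes, 2 had their highest level in Cluster 22, Nr4a2 and Cplx3, but Cplx3 was near 0 everywhere (0.26 CPM here) and Ctgf was at 0 in Cluster 22. Of the list, 6 genes had a higher mean than in Cluster 1 and 7 a lower one, 3 of each in every embryo, and the median rank among the 8 PN clusters was 6. The list summed to 1416 ± 445 CPM (SD, n = 11) against 317 CPM in Cluster 1, 670.2 CPM in Cluster 4 and a mean of 1160 CPM in the interneuron clusters, with Unc5c holding most of the sum. The study's own 100 top markers of Cluster 22, which were picked on these samples and are no independent evidence, were all in the counts, and 36 of them were highest in Cluster 22 of the 25 clusters and 50 highest among the PN clusters.

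Il1rapl2 was not spread evenly over the nuclei of Cluster 22. It had 0 UMIs in 227 nuclei (40.8%) and at least 10 UMIs in 221 (39.7%), with up to 384 UMIs in a nucleus. By level, 211 nuclei had at least 1000 CPM, 318 had under 500 CPM and 28 lay between. The levels ran on across these limits, with 29 nuclei at 200 to 500 CPM and 39 at 1000 to 2000 CPM, so that 96 of the 557 lay between 200 and 2000 CPM. After thinning to 2000 UMIs, 44.3% ± 10.41 of nuclei (SD, n = 11) had an Il1rapl2 UMI, against 3.7% in Cluster 1, 5.0% in Cluster 4 and 11.1% in interneurons. The nuclei with high Il1rapl2 came from both treatments and every embryo. They made up 41.0, 44.9, 11.9, 25 and 39.0% of the nuclei of S1-1, S1-2, S2-1, S2-2 and S2-4, and between 28.6% (E2-4) and 45.5% (E2-1) of those of the EtOH embryos. The littermates S2-1 and S2-2 were the low ones, with 5 such nuclei each, and their Il1rapl2 levels were 1529 and 916 CPM where the other embryos had 1941 to 2570 CPM.

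Nuclei on either side of this division differed in further genes, which is a description of ranges of one gene and not of cell types. In the 9 embryos with at least 10 nuclei on each side, the high nuclei had more Unc5c (1459 ± 317 against 519 ± 113 CPM, SD, n = 9), a ratio of 2.81 with the same direction in 9 of 9 embryos. Nr4a2 (221 against 84.8 CPM, ratio 2.60, 8 of 9 embryos), Etl4 (1185 against 613 CPM, ratio 1.93, 9 of 9), Tmcc3 (ratio 2.55, 9 of 9), Dlc1 (ratio 1.97, 9 of 9) and Plppr5 (ratio 1.45, 9 of 9) were higher too. Several leading genes thus came with Il1rapl2 in the same nuclei, but others did not. Olfm3 was higher in 5 of 9 embryos, Fgf10 and Timp4 in 4 of 9, and Ppp1r14c in 2 of 9 (ratio 0.872). No share over all genes was computed for this division. By list, 13 of 17 callosal genes, 8 of 10 PN identity genes and 8 of 13 subplate genes had the lower mean in the high nuclei. The subcortical list was even (8 higher, 8 lower). The lower mean held in all 9 embryos for 1 of the callosal and 0 of the PN identity genes. Some PN identity genes differed little, such as Map2 (ratio 0.988) and Tbr1 (ratio 0.938). Some subplate genes were near 0, such as Cplx3 (0 against 0.51 CPM) and Nxph4 (0.47 against 2.19 CPM). Of the 14 claustrum and lateral cortex genes, 9 had the higher mean in the high nuclei and 5 the lower one. Gnb4, a G protein beta subunit, was higher (79.6 against 34.0 CPM, ratio 2.34, 9 of 9), while Ntng2, a netrin-G, was at 156 against 316 CPM (ratio 0.493, higher in 0 of 9) and the transcription factor gene Tfap2d at 5.65 against 27.9 CPM (higher in 2 of 9). In Cluster 22 as a whole that list summed to 1293 ± 146 CPM (SD, n = 11), near the sum of Cluster 4 (1325 CPM) and under those of Clusters 1 and 16 (1672 and 2437 CPM), although 8 of its genes had a higher mean than in Cluster 1 and 6 a lower one. The low nuclei also had more Ldb2 (1554 against 907 CPM), Tshz3 (692 against 506 CPM) and the ephrin receptor Epha3 (2018 against 1330 CPM), each in 9 of 9 embryos. They likewise had more Neurod6 (132 against 71.6 CPM) and Neurod2 (123 against 82.0 CPM), each in 8 of 9 embryos. Sox5 (ratio 0.979) and Bcl11b (ratio 1.05) differed little. Depth moved with the division to some extent, since the high nuclei had the larger median UMI count in 10 of 11 embryos (13365 against 13283 in S1-1, 11973.5 against 8437 in E2-4) and the smaller one in E1-2 (8521 against 8791.5), and its part in these ratios was not tested.

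**Figure D3:**
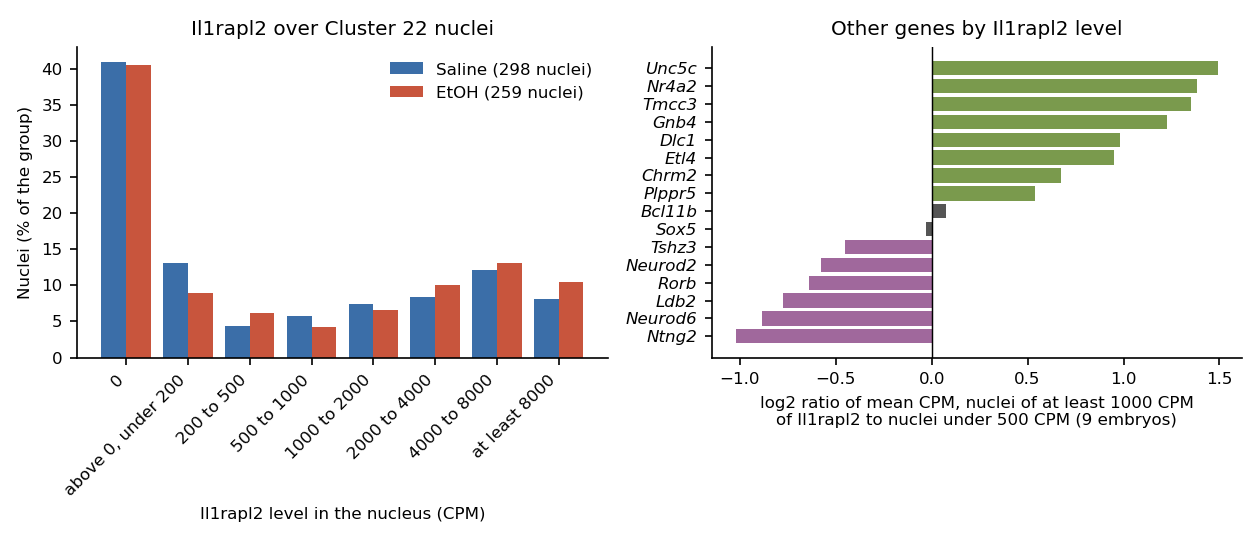
Left, percent of Cluster 22 nuclei of each group (298 saline and 259 EtOH nuclei) by the level of Il1rapl2 in the nucleus in CPM; right, log2 ratio of the mean CPM of other genes between nuclei of at least 1000 CPM and nuclei under 500 CPM of Il1rapl2, over 9 embryos. Pooled over embryos, 40.9% of saline and 40.5% of EtOH nuclei are at 0, and both groups have a broad upper range. By embryo the share at 0 ran from 32.4% (S1-1) to 60% (S2-2) in saline and from 33.3% (E2-1) to 50% (E1-1) in EtOH embryos. Unc5c (ratio 2.81) and Ntng2 (ratio 0.493) lie at the ends of the right panel.

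To see which genes differed after EtOH within Cluster 22, counts were summed per embryo and tested with edgeR's quasi-likelihood test over embryos, with an adjusted p under 0.05 and a minimum size of change, given with the methods, needed for a call. A sum per embryo cannot tell fewer nuclei of a kind from less RNA per nucleus. Of 6127 genes tested, 27 (0.441%) were higher and 6 (0.0979%) lower after EtOH, and 659 (10.8%) had an unadjusted p under 0.05. The 6 lower genes are all protein-coding, while 16 of the 27 higher genes (59.3%) are long non-coding RNAs (lncRNAs), a class that makes up 4.49% of the genes tested. These counts were not stable to single embryos. They were 0 and 0 when S1-1, S1-2, S2-1, E2-1, E2-2 or E2-3 was left out, 4 and 2 without E1-2, 1 and 0 without E2-4, and 165 and 28 without S2-4. With batch as a covariate, 11 and 2 genes were called, and with counts summed per dam 0 and 0. When the same p-values were adjusted over protein-coding genes alone, 6 of the 17 protein-coding calls remained.

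The 6 lower genes were Zbtb20, Dach1, Rbpj, Cdh11, Klf12 and Spock3. Zbtb20, a zinc finger repressor known for its part in hippocampal and cortical development (chr16:42875881-43642602 in mm10), was at 337, 314, 258, 216 and 258 CPM in saline embryos S1-1, S1-2, S2-1, S2-2 and S2-4, and between 97.6 (E2-2) and 211 CPM (E1-2) with a median of 152 CPM in EtOH embryos. Each EtOH embryo was below each saline embryo, though E1-2 came close to S2-2. The log2 fold change was -0.90 (SE 0.15, adjusted p = 0.0212). Dach1, a transcriptional cofactor (chr14:97786853-98169765), was at 145, 134, 190.5, 224 and 122 CPM in saline embryos and between 35.9 and 109 CPM with a median of 58.4 CPM in EtOH embryos, again without overlap (log2 fold change -1.33, SE 0.23, adjusted p = 0.0212). Rbpj, the DNA-binding effector of Notch signalling (chr5:53466152-53657362), was at 109 to 159 CPM in saline and 78.3 to 98.7 CPM in EtOH embryos, and fell by 0.64 on the log2 scale (SE 0.14, adjusted p = 0.0328).

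The other 3 lower genes overlapped between the groups. Cdh11, a cadherin of cell adhesion, was at 279 to 419 CPM in saline and 195 to 338 CPM in EtOH embryos, where E1-1 alone (338 CPM) reached into the saline range, and its log2 fold change was -0.65 (SE 0.13, adjusted p = 0.0279). Klf12, a Krüppel-like repressor, was at 562 to 1148 CPM in saline, with S2-2 highest, and 448 to 572 CPM in EtOH embryos (log2 fold change -0.67, SE 0.14, adjusted p = 0.0427). Spock3, a secreted proteoglycan, was low throughout, at 19.1 to 58.0 CPM in saline and 2.67 to 26.01 CPM in EtOH embryos, with a log2 fold change of -1.80 (SE 0.40, adjusted p = 0.0478). All 6 were lower after EtOH in both batches, but Klf12 and Cdh11 differed little in batch 1 (differences of -0.19 and -0.30 in mean log2 CPM, against -0.88 and -0.81 in batch 2).

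Dach1 and Zbtb20 are made far more strongly by other cells. Dach1 was lowest of the 25 clusters in Cluster 22 (108 CPM), against 3509 CPM in Cluster 14, and its mean was lower after EtOH in 24 of the 25 clusters (median log2 ratio of the group means -0.46, -1.37 in Cluster 22). Klf12 was lower in 24 clusters, Rbpj in 23, and Cdh11 and Spock3 in 18 each. Genes of other cell types went both ways in Cluster 22, with 7 of 13 tested above 0, 6 below and 0 called, beside 0.441% and 0.0979% of all genes called higher and lower. Of 14 interneuron genes, 5 could be tested and 4 had a log2 fold change below 0 (median -0.50), 1 of them at an unadjusted p under 0.05, where 4.8% of all genes were lower. Gad2 stood at -0.50 (SE 0.33, edgeR adjusted p = 0.630) and Reln at -0.44 (SE 0.52, edgeR adjusted p = 0.815), while the replication gene Mcm7 stood at 0.78 (SE 0.30, edgeR adjusted p = 0.322) and the glial glutamate transporter Slc1a3 at 0.27 (SE 0.29, edgeR adjusted p = 0.787). A Gad2 UMI was found in 26.6% ± 11.8 of nuclei in saline embryos (SD, n = 5), against 10.6% ± 4.1 after EtOH (SD, n = 6), and after thinning to 2000 UMIs in 6.2% ± 4.2 and 3.5% ± 2.1. The part of RNA from other cells in the lower genes was not tested.

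Among the 27 higher genes, 11 are protein-coding by annotation. C2cd2 was at 38.4, 30.9, 12.7, 34.8 and 58.6 CPM in saline embryos and 73.3 to 122 CPM in EtOH embryos (log2 fold change 1.32, SE 0.24, adjusted p = 0.0212). Gsdme, a pore-forming gasdermin, was at 80.0, 61.8, 65.3, 96.6 and 106 CPM in saline embryos and 113 to 174 CPM in EtOH embryos (log2 fold change 0.86, SE 0.16, adjusted p = 0.0212), and Prpf4b, a kinase of pre-mRNA splicing, was at 103 to 143 CPM and 164 to 197 CPM (log2 fold change 0.60, SE 0.11, adjusted p = 0.0212). The groups did not overlap for these 3 genes, and S2-4 was the highest saline embryo in each. Gabarapl2, an ATG8 family protein of autophagy, was at 22.1, 24.7, 21.8, 7.73 and 49.0 CPM in saline embryos and at 61.4 to 69.5 CPM in EtOH embryos (log2 fold change 1.20, SE 0.24, adjusted p = 0.0272). Gcnt7, of a glycosyltransferase family, was at 3.63 to 17.9 and 17.3 to 41.8 CPM (log2 fold change 1.60, SE 0.33, adjusted p = 0.0279), with S2-4 above E1-1. Other protein-coding genes called higher, named after their values were seen, include the angiopoietin gene Angpt2 (log2 fold change 1.13), the bZIP transcription factor gene Cebpg (1.10), Osbpl1a (0.68) and Fgfr2 (0.58). The annotated span of Fgfr2 overlaps many other genes on the opposite strand, so reads of these may be counted in it if strand was not used.

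The lncRNAs that rose include Gm26749 (log2 fold change 1.40, SE 0.26), Gm26804 (0.90, SE 0.16), Gm48512 (0.85, SE 0.16), Gm36975 (0.86, SE 0.16), Gm11659 (0.90, SE 0.18) and Gm15563 (1.20, SE 0.23), each with an edgeR adjusted p of 0.0212, and 1700111E14Rik, Gm26904 and Gm13883. Gm11659, which lies antisense to the microtubule gene Mapt (chr11:104250902-104259361), was at 39.7, 38.3, 45.3, 46.4 and 72.9 CPM in saline embryos and at 73.7 to 104 CPM in EtOH embryos. S2-4 was the highest saline embryo and lay just below the lowest EtOH embryo, E1-1. Gm37240, a locus annotated as protein-coding that spans several genes, was at 62.5, 63.0, 68.9, 69.6 and 129 CPM in saline embryos and at 121 to 179 CPM in EtOH embryos, and here S2-4 fell among the EtOH embryos. Genes on the other strand were looked up beside them. Of the 16 lncRNAs called, 13 have tested protein-coding partners on the opposite strand, chosen after the calls were known. Of these 19 partners 11 had a positive log2 fold change, against 50.1% of all genes tested, with a median of 0.02 (range -0.27 to 0.49), and 0 were called, which at the called shares of all genes (0.441% higher, 0.0979% lower) is near the background. Mapt had a log2 fold change of 0.07, Usp3 (opposite Gm15563) -0.18, Dgki (opposite 1700111E14Rik) -0.16 and Birc6 (opposite Gm26749) 0.08. The paper reports default Cell Ranger settings and does not name the counting strand, so reads of overlapping genes may not be separable. Overlap with another annotated gene on either strand held for 26 of the 27 genes called higher and all 6 called lower, beside 66.1% of all genes tested. On the opposite strand it held for 23 and 5 of them, and on the same strand for 12 and 4. Over the 6127 genes tested, 3286 overlapped a gene on the opposite strand and 1959 a gene on the same strand.

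The shift was seen across the lncRNAs tested and also moved with gene span. The median log2 fold change was 0.49 over the 273 lncRNAs tested, of which 78.4% were positive, against -0.01 over 5804 protein-coding genes (48.7% positive). By annotated span it was 0.10 over 905 genes under 20 kb (63.8% positive), 0.01 over 3431 genes of 20 to 100 kb (51.8%) and -0.06 over 1741 genes of at least 100 kb (39.4%). The genes called higher had a median span of 41.7 kb and those called lower 394.5 kb, beside 52.8 kb over all genes tested, and the part of span in the calls was not tested. LncRNAs took 3.66, 3.61, 3.55, 3.94 and 4.86% of the Cluster 22 UMIs in S1-1, S1-2, S2-1, S2-2 and S2-4, a mean of 3.92% ± 0.546 (SD, n = 5), and 4.43 to 4.96% in EtOH embryos, a mean of 4.75% ± 0.191 (SD, n = 6). S2-4 was thus within the EtOH range, as it was for depth. The same difference between the means, 0.823 percentage points in Cluster 22, was 0.808 in Cluster 1, 0.911 in Cluster 4, 0.829 in Cluster 8 and 0.993 in Cluster 16, with S2-4 the highest saline embryo in each. The nuclear RNA Malat1, itself a lncRNA and so no measure apart from that share, moved in the same direction, from 1.22% ± 0.169 to 1.39% ± 0.141 of UMIs. The ribosomal protein genes did so too, from 0.158% ± 0.021 to 0.177% ± 0.0126 (both SD, n = 5 and 6). Depth, lncRNA share and treatment moved together over the libraries, and the part of depth in the calls was not tested beyond these values: with every embryo thinned to the lowest total 8 genes were called higher and 2 lower, and among nuclei of 5000 to 15000 UMIs 1 and 2.

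**Figure D4:**
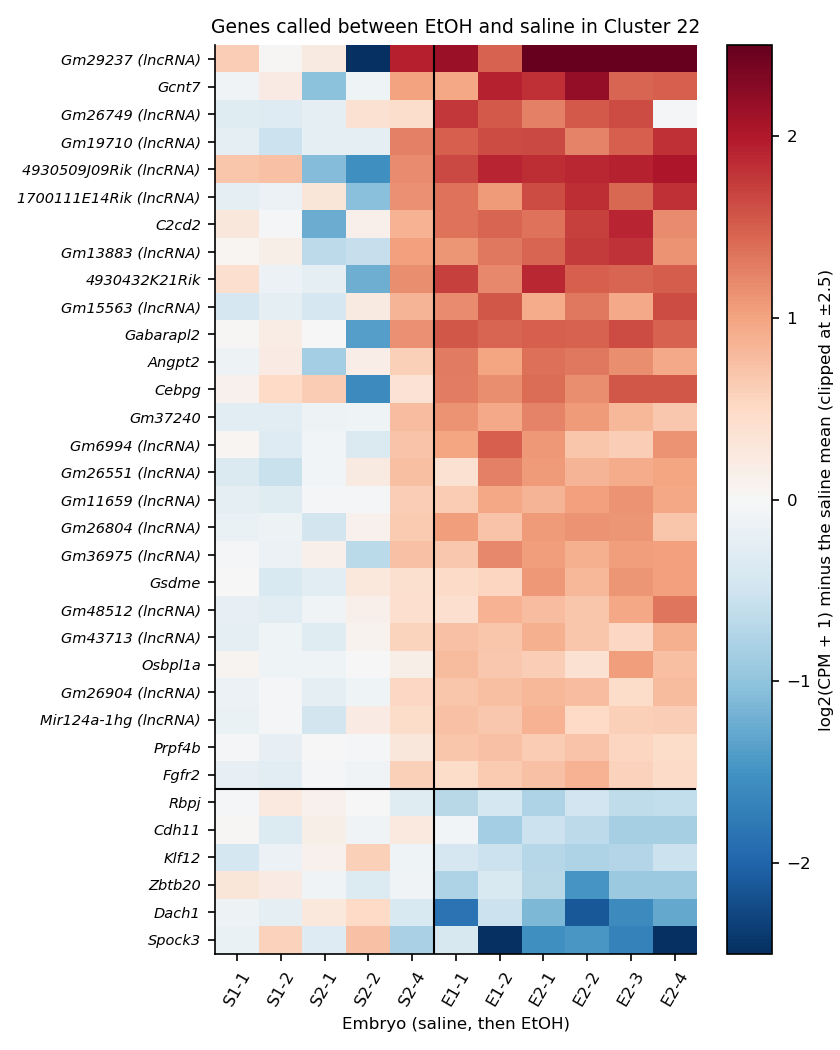
Level of the 33 genes called between EtOH and saline in Cluster 22, as log2(CPM + 1) minus the mean of the saline embryos, for each embryo (saline left of the vertical line, EtOH right, genes called lower under the horizontal line). The 16 lncRNAs are marked, and for genes such as Gm37240 (129 CPM) the saline embryo S2-4 takes the colour of the EtOH embryos.

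Every EtOH embryo was above every saline embryo for 46 genes (0.751%) and below for 32 (0.522%) of the 6127 tested. Among the called genes this held for 15 of the 27 higher and 3 of the 6 lower ones (Zbtb20, Dach1 and Rbpj).

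None of the identity lists held a called gene, which for lists of this size is near the background of 0.441% higher and 0.0979% lower over all genes. Neurod2 was at 120.4, 116, 194, 131 and 122 CPM in saline embryos and 67.0 to 138 CPM in EtOH embryos (log2 fold change -0.49, adjusted p = 0.281 by edgeR). Neurod6 went the other way within its spread (0.33, edgeR adjusted p = 0.609). Of the PN identity list 9 genes could be tested and 0 were called (median log2 fold change -0.12). The callosal list (11 tested, median 0.14), the subcortical list (12 tested, median 0.00), the subplate list (6 tested, median 0.19) and the claustrum and lateral cortex list (8 tested, median 0.16) had 0 calls too, beside a median of 0.00 over all genes tested. At an unadjusted p under 0.05 the 5 lists had 1, 0, 0, 0 and 1 higher and 1, 0, 0, 0 and 0 lower genes. Of the study's 100 markers of the cluster, all tested, 0 were called, with a median of 0.05. At an unadjusted p under 0.05, 13 of them (13%) were higher and 12 (12%) lower. All genes tested had 365 (5.96%) higher and 294 (4.8%) lower. The 100 markers summed to 164190 CPM, while the median level over all genes tested was 54.0 CPM. These shares are thus not matched for level, and the part of level in them was not tested.

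Lists of synapse and excitability genes held 0 calls too, again near those shares of all genes. Among 28 presynaptic genes the median log2 fold change was -0.03, among 29 postsynaptic genes 0.01, among 20 glutamate receptor genes -0.06, among 14 GABA receptor genes -0.11 and among 28 ion channel genes -0.14. At an unadjusted p under 0.05, 4 presynaptic, 5 postsynaptic, 3 glutamate receptor, 2 GABA receptor and 4 ion channel genes were lower, and 1, 2, 0, 0 and 0 were higher. Over the 119 genes of these lists that makes 18 (15.1%) lower and 3 (2.52%) higher, beside 4.8% and 5.96% of all genes tested, and the median was -0.06. The 1741 tested genes of at least 100 kb also had a median of -0.06, with 39.4% positive. The lists were not matched to all genes for level, and the part of gene span or level in their values was not tested. Gabra2, a GABA-A receptor subunit, had a log2 fold change of -0.74 (SE 0.21, edgeR adjusted p = 0.186), and Il1rapl1, the close relative of Il1rapl2, -0.34 (SE 0.12, edgeR adjusted p = 0.247), while Lrrtm1, a synaptic adhesion molecule, stood at 0.73 (SE 0.24, edgeR adjusted p = 0.233).

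Axon guidance and Wnt genes had 0 calls among 39 and 20 genes tested, with medians of -0.06 and -0.07. Of all genes 0.441% were called higher and 0.0979% lower, so 0 calls in lists of this size is near the background. At an unadjusted p under 0.05, 2 guidance genes (5.13%) and 1 Wnt gene (5%) were higher and 4 (10.3%) and 3 (15%) lower. Over all genes 5.96% were higher and 4.8% lower, and these lists too were not matched to all genes for level. The smallest p values in these lists belonged to the guidance molecule Sema5a (log2 fold change -0.79, SE 0.21, edgeR adjusted p = 0.144) and the Wnt5a co-receptor Ror2 (-0.88, SE 0.26, edgeR adjusted p = 0.146), with the netrin receptor Dcc (-0.54, edgeR adjusted p = 0.275) and the Wnt receptor Fzd3 (-0.45, edgeR adjusted p = 0.213) next among the genes named. Cell death and p53 genes (9 tested, median -0.02), oxidative and heat stress genes (7 tested, median 0.03), alcohol and acetaldehyde metabolism genes (3 tested, median 0.15) and activity-regulated genes (3 tested, median 0.14) were called in 0 cases. Many genes of these lists were too low to test, among them the p53 target Cdkn1a, the heat shock genes Hspa1a and Hspa1b and the alcohol dehydrogenase Adh1, all at 0 UMIs in Cluster 22.

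Whether an effect of EtOH differs between Cluster 22 and other PN was tested within embryos, as an interaction of cluster and treatment with the embryo as a block. Against Cluster 1, 0 of 10318 genes (0%) were called in either direction by edgeR, 561 (5.44%) had an unadjusted p under 0.05, and DESeq2 called 0. This depended on single embryos, with 17 and 1 called (EtOH effect higher and lower in Cluster 22) without S2-4, 4 and 0 without S2-2, 3 and 1 without E2-2 and 1 and 0 without E2-4. Against the sum of the 7 other PN clusters (15479 nuclei), 0 genes had a higher effect in Cluster 22 and 1 of 12407 (0.00806%) a lower one, with 571 (4.6%) at an unadjusted p under 0.05.

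The single gene was Zbtb20. Its EtOH effect was lower by 0.80 on the log2 scale in Cluster 22 than in the 7 other PN clusters (SE 0.13, edgeR adjusted p = 0.00209), and it remained called when any 1 of the 11 embryos was left out. It was also called lower in 4 of 11 such repeats of the comparison within Cluster 22 alone. The level of Zbtb20 in Cluster 22, 209.8 ± 75.6 CPM (SD, n = 11), was the lowest of the 25 clusters, against 476 CPM in Cluster 1 and 5057 CPM in Cluster 3. Mean Zbtb20 was lower after EtOH in 15 of the 25 clusters, Cluster 22 among them. The log2 ratio of the group means was -0.95 in Cluster 24, -0.84 in Cluster 22, -0.68 in Cluster 19, -0.39 in Cluster 4, -0.10 in Cluster 1 and 0.39 in Cluster 16.

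**Figure D5:**
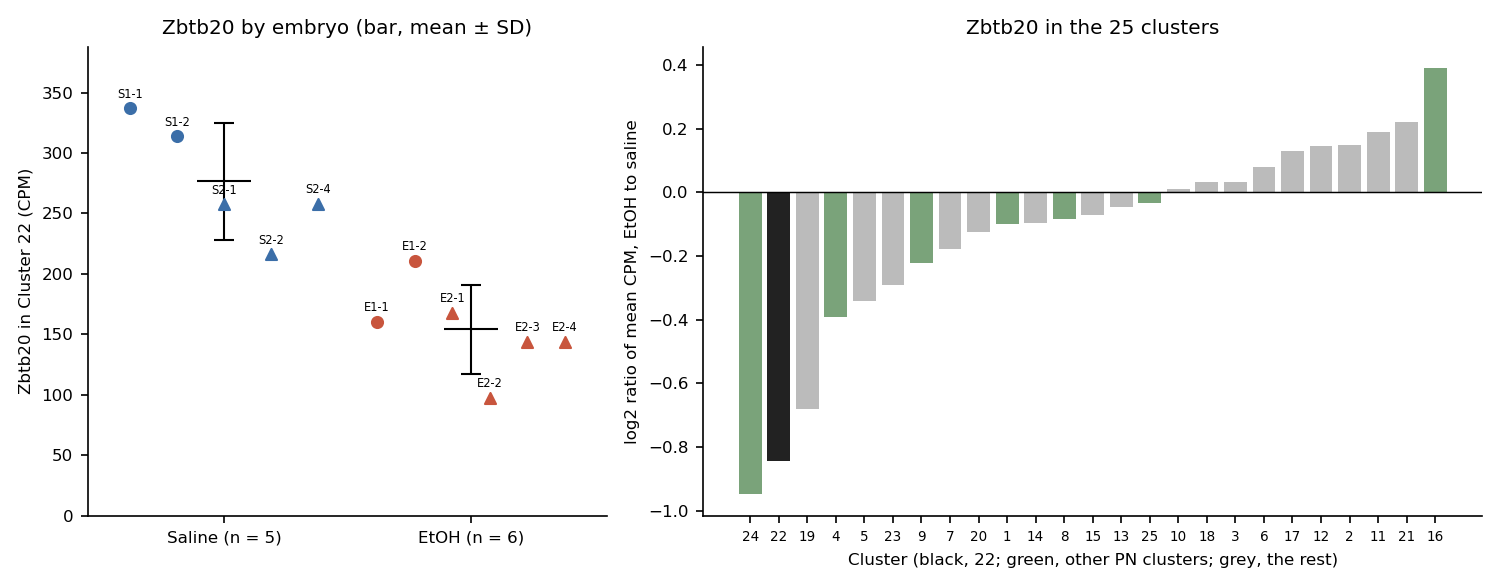
Left, Zbtb20 in Cluster 22 in each embryo in CPM (circles batch 1, triangles batch 2, bar mean ± SD), with all EtOH embryos (97.6 to 211 CPM) below all saline embryos (216 to 337 CPM). Right, log2 ratio of mean Zbtb20 CPM between EtOH and saline in each of the 25 clusters, with Cluster 22 (-0.84) between Cluster 24 (-0.95) and Cluster 19 (-0.68).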

How the data were processed

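Nuclei from the cortices of 5 saline and 6 EtOH embryos were profiled by droplet snRNAseq, 1 library per embryo. The authors aligned reads to mm10 and counted UMIs with Cell Ranger (version, counting strand and use of introns not given in the sources used here), filtered nuclei and genes, clustered the nuclei, dropped thalamic, non-neuronal and transcript-poor clusters, and deposited raw UMI counts in 1 table per embryo and cluster, without normalization. Tables were read in Python 3.11.15 using pandas 2.3.3 and NumPy 2.4.6, tests over embryos used SciPy 1.17.1, and figures matplotlib 3.10.9. Doublets were not called here and the methods name no caller. Littermate libraries differed by more than counting noise, which gives a chi-square per gene near 1 (1.83 to 3.84 over 11 pairs, with pairs across dams not compared). Annotation came from GENCODE M21 on GRCm38 (mm10), matched by symbol for 23125 of 23513 genes.

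Counts were summed per embryo over Cluster 22 nuclei (20 to 105 nuclei, at least 10 required) and tested in R 4.3.3 with edgeR 4.0.16 (TMM, filterByExpr, robust quasi-likelihood fit, Benjamini-Hochberg adjustment at 0.05, fold change above 1.25 or below 0.8). Interaction fits had the embryo as a block. Alternatives used DESeq2 1.42.0, limma voom 3.58.1 with a random effect of dam, other filters and scalings, batch, dam sums, thinned counts and each embryo left out. Scripts were tested on simulated data. With 2 dams per treatment, littermates were taken as independent, so p-values measure the spread between embryos and not between dams. Percentages and depths were compared by two-sided exact permutation tests. Levels are means of CPM over embryos, and Wilson intervals cover counting error only, since nuclei of an embryo are not independent.

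Genes named are Neurod2 and Neurod6, the 15 with the largest ratio to the highest other cluster and to the highest other PN cluster (at least 10 CPM and UMIs in at least 10 embryos), up to 15 called per direction by adjusted p, genes called in an interaction, and a few per list by p or level. Others are said to be named after their values were seen, which also holds for the genes compared by Il1rapl2 level that lead no list. Cluster 22, its gene lists and its tests were chosen with earlier results of these data known, and the study's marker list was made on these samples. Some items that this rule covers are not reported here.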

Additional observations from a re-analysis of the deposited data

Results flagged for a closer look

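Of 78 groups of embryos examined for a single embryo far from the rest, 9 had one. Chance alone gives about 1 in 20 for separate groups. These groups share the same embryos and are not independent, so the 9 cannot be judged against that rate. Embryo E1-1 had a median of 5757.5 UMIs per Cluster 22 nucleus where the other EtOH embryos had 8521 to 9683, and a median of 2299.5 genes where they had 2894 to 3142. It also had the highest Cdh11 of the EtOH embryos, at 338 CPM against 195 to 245 CPM. Saline embryo S2-4 stood above the other saline embryos for 5 of the genes called higher after EtOH: Gm37240 at 129 CPM (others 62.5 to 69.6), Gm11659 at 72.9 CPM (38.3 to 46.4), Gm26904 at 137 CPM (81.6 to 93.9), Gm19710 at 88.4 CPM (24.7 to 30.9) and Fgfr2 at 374 CPM (204 to 243). Neurod2 was highest in saline embryo S2-1, at 194 CPM against 116 to 131 CPM.

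The EtOH effect on Zbtb20 differed between Cluster 22 and the sum of the 7 other PN clusters by -0.80 on the log2 scale (SE 0.13, edgeR adjusted p = 0.00209). That sum follows each embryo's mix of clusters.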

How the results depend on the processing

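The number of genes called between EtOH and saline in Cluster 22 (27 higher, 6 lower) moved with most settings. It was 47 higher and 11 lower with DESeq2, 84 and 89 with no filter on low counts, 11 and 2 with batch as a covariate, 77 and 9 with the dam as a random block in limma, 8 and 2 after thinning to the lowest embryo total, and 0 and 0 with counts summed per dam. The limma fit estimated a within-dam correlation of -0.0338, so its 77 and 9 calls allow for no added spread between dams. Of alternatives chosen after seeing the data, leaving out both embryos with the fewest UMIs (S2-2 and E1-1) gave 3 and 2, protein-coding genes alone 4 and 2, and nuclei of 5000 to 15000 UMIs 1 and 2. The protein-coding setting kept the p-values of the main fit and repeated only their adjustment, and 11 of the 17 protein-coding calls then missed the threshold. The cause of the other moves was not tested, apart from the smaller number of samples, nuclei or genes in some of them. Leaving out 1 embryo gave 0 to 165 higher and 0 to 28 lower, with 0 and 0 without S1-1, S1-2, S2-1, E2-1, E2-2 or E2-3 and 165 and 28 without S2-4. Over the 33 genes, all that could be tested kept their direction under every alternative, 150 of 371 repeats under settings other than leaving out 1 embryo missed the threshold, and 270 of 358 with an embryo left out did.

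The interaction with Cluster 1 gave 0 to 17 genes with a higher and 0 to 1 with a lower EtOH effect when 1 embryo was left out, and 0 in DESeq2, with DESeq2 size factors and with a cluster by batch term, the last chosen after seeing the data. The interaction with the 7 other PN clusters gave 0 higher throughout and 1 to 3 lower, with 3 without S1-2 or E1-1 and 2 without S2-1, S2-4 or E2-3, and 1 in the other settings. The difference in the percent of all nuclei lay between 0.299 and 0.530 points with 1 embryo left out, and that in the percent of PN nuclei between -0.002765 (reversed, without S2-2) and 0.652. The differences in median UMIs (-3896 to -2702) and median genes (-661 to -464) kept their direction. The share of nuclei with a Neurod2 UMI was 61.4% not thinned and 11.4% at 1000 UMIs, and that for Neurod6 52.0% not thinned. No pairing of single embryos was possible because embryo numbers run within a dam and pair no saline with an EtOH embryo. With labels exchanged only within batches, the exact permutation p was 0.1 for the percent of all nuclei and 0.495 for that of PN nuclei. It was 0.0143 for median UMIs and 0.00476 for median genes. Genes with few UMIs in embryos of 20 to 49 nuclei could not be tested or carry wide errors.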
